A study of Mus musculus with 16 samples.

Results

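Mouse mmu-miR-26b-5p (miR-26b-5p from here on) is 1 of the 1978 mature miRNA names counted in fragments of paused and normal blastocysts, and it is described here over all 16 libraries. It was chosen from its own levels in these libraries, by the differences between paused and normal blastocysts. Those differences are therefore given as values with no test. Tests are kept to contrasts that did not choose it, which are polar against mural fragments, the 2 kinds of pause against each other, and the interaction of pause and part. Its near-identical relative miR-26a-5p is not a member, because that name has 2 precursors and almost no counts.

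Blastocysts were cut by laser into a polar fragment with the inner cell mass and a mural fragment of trophectoderm, and small RNA was sequenced from each. Diapaused blastocysts were paused in the mother and taken at EDG 7.5 (n = 3 polar and 3 mural libraries). mTORi blastocysts were paused by inhibiting the kinase mTOR, with no day, dose or compound given in the labels (n = 3 and 3). WT blastocysts were normal embryos at E4.5 (n = 2 and 2). No strain or allele is named for any group, and neither the number of embryos per library nor their pooling is given, so p-values measure the spread between these libraries, which may be technical. Day and treatment cannot be told apart in any comparison with WT. Nor can they between diapaused and mTORi blastocysts, since no day is given for the latter.

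MicroRNAs guide Argonaute proteins to messenger RNAs through a short seed at their 5′ end and lower the output of those messages. The miR-26 precursors lie in introns of the Ctdsp genes, which encode small phosphatases of the RNA polymerase II tail, and in other cell types the miRNA and its host phosphatases restrain entry into the cell cycle. Known miR-26 targets include Ezh2, the methyltransferase of Polycomb repressive complex 2, and in lymphoma cells MYC lowers miR-26. In diapause the blastocyst stays free in the uterus in an arrest that can be reversed, with little growth and little cell division, and blocking mTOR, which couples nutrients to growth, brings blastocysts into a similar arrest in culture.

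The mature sequences of the miR-26b hairpin and of the relative with the same seed are shown because they decide whether the counts can be assigned to 1 gene. They are from RefSeq (GRCm38.p6), 5′ to 3′, with the seed (bases 2 to 8) in capitals.
miR-26b-5p: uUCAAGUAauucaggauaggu
miR-26a-5p: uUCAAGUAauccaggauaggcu
miR-26b-3p: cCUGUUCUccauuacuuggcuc

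Mature miR-26b-5p is 21 nt long and lies at chr1:74394324-74394344 on the plus strand, its only locus. The hairpin Mir26b spans chr1:74394310-74394394 and sits in intron 4 of the 7-exon transcript of Ctdsp1, which has the same strand (gene chr1:74391509-74397285, GENCODE M21 on GRCm38). The hairpin, with both mature arms in capitals, shows how the miRNA is cut from a folded precursor.
Mir26b: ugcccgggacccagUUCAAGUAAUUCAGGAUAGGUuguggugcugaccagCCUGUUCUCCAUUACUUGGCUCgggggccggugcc

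The seed UCAAGUA was carried by miR-26a-5p and miR-26b-5p alone among the names of the files with an entry in the sequence table (1679 of 1978). Counted from 1 at the 5′ end of miR-26b-5p, the differences to miR-26a-5p are U11C and U21C, and miR-26a-5p is 1 base longer. The first 10 bases are shared. Mature miR-26a-5p has 2 loci, at chr9:119031811-119031832 in Ctdspl and at chr10:126995543-126995564 in Ctdsp2, so its reads match the genome in 2 places.

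Across all libraries miR-26b-5p had 1548 counts and miR-26a-5p had 1, in mural diapaused replicate 2. The other arm, miR-26b-3p, had 0 counts in every library, as had miR-26a-1-3p and miR-26a-2-3p. A count of 0 allows up to 3 counts in a library. Low counts were common among all names, and 1481 of the 1978 had no count. The 53 names with 2 or more loci held 753 counts in all, or 0.616% of the counts, and 2 of them (3.77%) had over 10 counts. The 1626 names with 1 locus held 106945 counts, or 87.5%, and 191 (11.7%) had over 10. A further 299 names have no entry in the sequence table, so their loci are not known here. They held 14553 counts, or 11.9%, and 41 (13.7%) had over 10. The level of miR-26a-5p in these embryos therefore cannot be read from its count, and how reads with several matches were handled is not given in the sources used here.

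Libraries were shallow, with total counts from 1744 to 20051, an 11.5-fold range, and miR-26b-5p itself held 21 to 249 counts per library. Totals ran from 9049 to 20051 in diapaused, 2184 to 4386 in mTORi and 1744 to 8366 in WT libraries. The fragment labels were set beside 2 marker lists of these parts, which were chosen with earlier results of these data known. The 7 polar or epiblast miRNAs (the miR-302 cluster and 3 others) summed to 0.359% to 1.43% of the counts in polar libraries and to at most 0.00675% in mural ones, with all 7 at 0 in the mural mTORi and mural WT groups. Some were also at 0 in polar groups: miR-302b-3p, miR-302d-3p and miR-367-3p in polar mTORi, and miR-302a-3p in polar diapaused and polar WT. The mural list of miR-322, miR-351 and miR-503 summed to 0.344% to 1.92% in polar libraries against 2.55% to 7.16% in mural ones. Both lists separated the parts in every library, which is a description and no independent check of the labels, given how the lists were chosen. A pair of libraries stood apart from their groups. Polar mTORi replicate 3 had 25.8% of its counts in miRNAs of stratified epithelium (miR-203 and miR-205), against 0.719% and 1.83% in the other polar mTORi libraries and 0.341% to 1.28% in the libraries of the other groups. Polar WT replicate 2 had 2.35% of its counts in erythroid miRNAs (miR-451a, miR-144 and miR-486a), against 0.115% in the other polar WT library and at most 0.275% elsewhere. Of these 3 miRNAs, miR-486a had no count in polar WT. Replicates differed beyond counting error, the chi-square of a pair divided by its degrees of freedom being 1.995 to 21.7, highest between polar mTORi replicates 1 and 3. Leukocyte miRNAs stayed at or under 0.366% and endothelial miRNAs at or under 0.122% of any library.

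Of all miRNA counts, miR-26b-5p took 1.68%, 1.36% and 1.65% in the polar diapaused libraries (243, 129 and 149 counts). In the polar mTORi libraries its share was 2.03%, 1.56% and 2.999% (62, 34 and 105 counts). In the polar WT libraries it was 1.20% and 0.729% (21 and 36 counts). Every paused polar library was above both WT ones, and the highest value was in polar mTORi replicate 3, the library with 25.8% epithelial miRNAs.

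Mural fragments held less of it. The mural diapaused libraries had shares of 0.952%, 1.24% and 0.837% (120, 249 and 124 counts). In mural mTORi libraries the shares were 2.12%, 1.30% and 1.40% (93, 47 and 49 counts). The mural WT libraries had 0.622% and 0.562% (40 and 47 counts). The mural WT libraries were the lowest of the 16, and the paused mural libraries were again all above them. The exact (Clopper-Pearson) 95% intervals, which cover counting error only, ran from 0.413% to 0.746% in mural WT replicate 2 and from 2.46% to 3.62% in polar mTORi replicate 3. The interval of polar WT replicate 1, the shallowest library, was 0.747% to 1.83% and overlapped those of all 3 polar diapaused libraries.

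**Figure D1:**
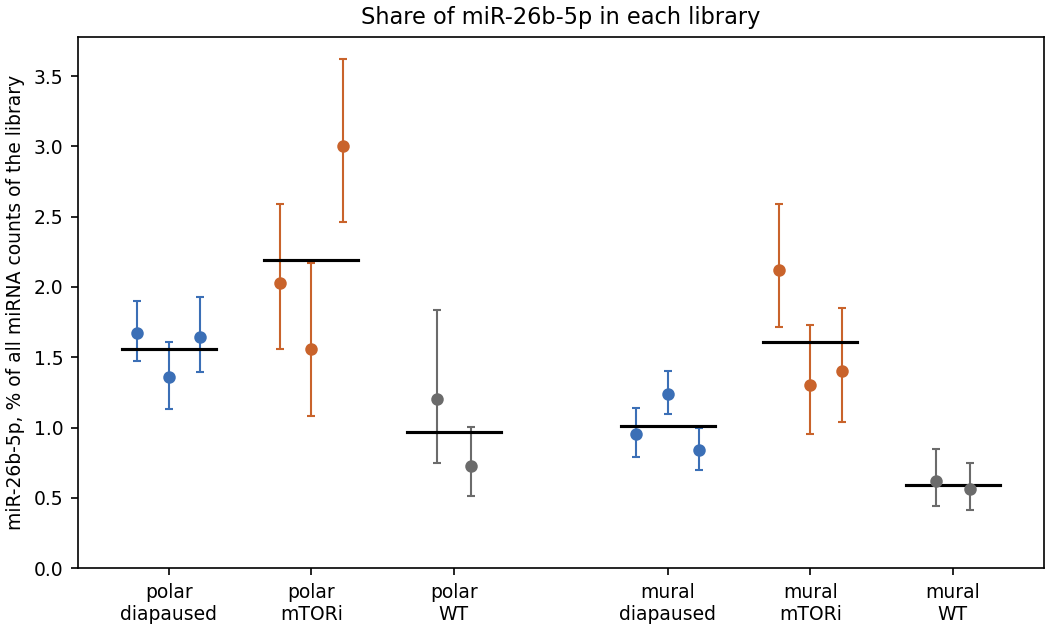
Share of miR-26b-5p in percent of all miRNA counts of a library, with 1 point per library, exact 95% intervals as bars and the group mean as a black line, for polar fragments on the left and mural fragments on the right. The diapaused and mTORi libraries lie above the WT libraries of the same part, and the mural WT libraries, at 0.622% and 0.562%, are the lowest.

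The mean shares were 1.56% ± 0.177 in polar diapaused and 2.19% ± 0.736 in polar mTORi fragments (SD, n = 3 each), against 0.966% ± 0.336 in polar WT (SD, n = 2). In mural fragments they were 1.01% ± 0.209 for diapaused and 1.61% ± 0.446 for mTORi (SD, n = 3 each), against 0.592% ± 0.0423 for WT (SD, n = 2). The order of the group means was polar mTORi, mural mTORi, polar diapaused, mural diapaused, polar WT and mural WT, and it was the same by share and by CPM, a count corrected for library size, after TMM scaling of the 102 tested miRNAs. Neighbours in that order overlapped, with these exceptions: polar and mural WT libraries did not overlap by share or CPM, and polar and mural diapaused libraries did not overlap by share but did by CPM. Between libraries of 1 group the log2 CPM of miR-26b-5p varied with an SD of 0.398.

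By CPM, miR-26b-5p averaged 14441 ± 1594 in polar diapaused and 24653 ± 11711 in polar mTORi libraries, against 9156 ± 2466 in polar WT. In mural fragments it averaged 12566 ± 2473 in diapaused and 17070 ± 4721 in mTORi libraries, against 5926 ± 432 in WT. Its rank by mean CPM among the 102 tested miRNAs was 11 and 9 in polar diapaused and polar mTORi fragments and 21 in polar WT. In mural fragments it ranked 16 and 12 in the paused groups and 30 in WT. Over all 16 libraries it was the 11th most abundant, with a mean of 14772 CPM, just under miR-148a-3p (21642) and miR-200b-3p (18712) and just above miR-295-3p (14589) and miR-30d-5p (14466).

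Diapaused polar fragments had 1.61 times the mean share of polar WT ones, and diapaused mural fragments 1.71 times that of mural WT. For mTORi the ratios to WT were 2.27 in polar and 2.72 in mural fragments. In none of the 4 comparisons did the libraries overlap, by share or by CPM. This separation was common. By share, 26.5% and 22.5% of the 102 tested miRNAs were higher without overlap in diapaused than in WT libraries of polar and mural fragments, and 18.6% and 17.6% in mTORi than in WT libraries. By CPM these percentages were 27.5% and 32.4% for diapaused, and 21.6% and 20.6% for mTORi. Shares move when an abundant miRNA moves, so they were also taken over the counts outside the miR-290 cluster, a cluster abundant in early embryos. There the mean share was 2.72% ± 0.280 in polar diapaused and 3.46% ± 0.696 in polar mTORi fragments, against 2.04% ± 0.571 in polar WT. In mural fragments it was 2.01% ± 0.421 in diapaused and 2.75% ± 0.823 in mTORi, against 1.20% ± 0.0995 in WT. The libraries again did not overlap with those of WT, and the ratio of polar diapaused to polar WT was 1.34, the smallest of the 4. In such bulk libraries, fewer cells that make the miRNA and less of it per cell cannot be told apart.

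In the edgeR fit over all 16 libraries the log2 difference of diapaused minus WT was 0.68 (SE 0.40) in polar and 1.08 (SE 0.39) in mural fragments, or 1.61-fold and 2.12-fold. The mean over the parts was 0.88 (SE 0.28). For mTORi minus WT it was 1.46 (SE 0.41) in polar and 1.53 (SE 0.40) in mural fragments, or 2.75-fold and 2.88-fold, with a mean over the parts of 1.49 (SE 0.29). These 6 values are positive under each scaling tried. Without polar mTORi replicate 3, the library rich in epithelial miRNAs, mTORi minus WT in polar fragments was 1.28. Without polar WT replicate 2, the library richest in erythroid miRNAs, diapaused minus WT in polar fragments was 0.46, the lowest value when any 1 library was left out. Both kinds of pause are set against the same WT libraries, so their 2 differences are not independent.

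For scale, at a Benjamini-Hochberg adjusted p under 0.05 in edgeR's quasi-likelihood test the share of the 102 tested miRNAs called was 7.84% for diapaused minus WT in polar fragments, 9.8% in mural fragments and 18.6% for the mean of the parts. For mTORi minus WT it was 22.5%, 11.8% and 32.4% in the same order. These counts of calls moved when 1 library was left out, and ran from 2 to 12 and 0 to 14 of the tested miRNAs for diapaused minus WT in polar and mural fragments (8 and 10 with all libraries), and from 4 to 28 and 6 to 17 for mTORi minus WT (23 and 12 with all). The lowest counts came without polar diapaused replicate 2 (2), mural WT replicate 2 (0) and polar WT replicate 2 (4), and for mTORi in mural fragments without mural mTORi replicate 3 or mural WT replicate 1 (6 each). A difference as positive as that of miR-26b-5p, or more so, was seen in 30.4% of the tested miRNAs for diapaused minus WT in polar fragments and in 20.6% in mural fragments. For mTORi minus WT the percentages were 19.6% and 10.8%. The median difference of all 102 was 0.10 and 0.19 for diapaused minus WT in polar and mural fragments, and 0.18 and -0.06 for mTORi minus WT. Under DESeq2's size factors (RLE) the median of diapaused minus WT in mural fragments was -0.05, and with library size alone it was -0.09, so that scaling moved it by over 0.1.

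**Figure D2:**
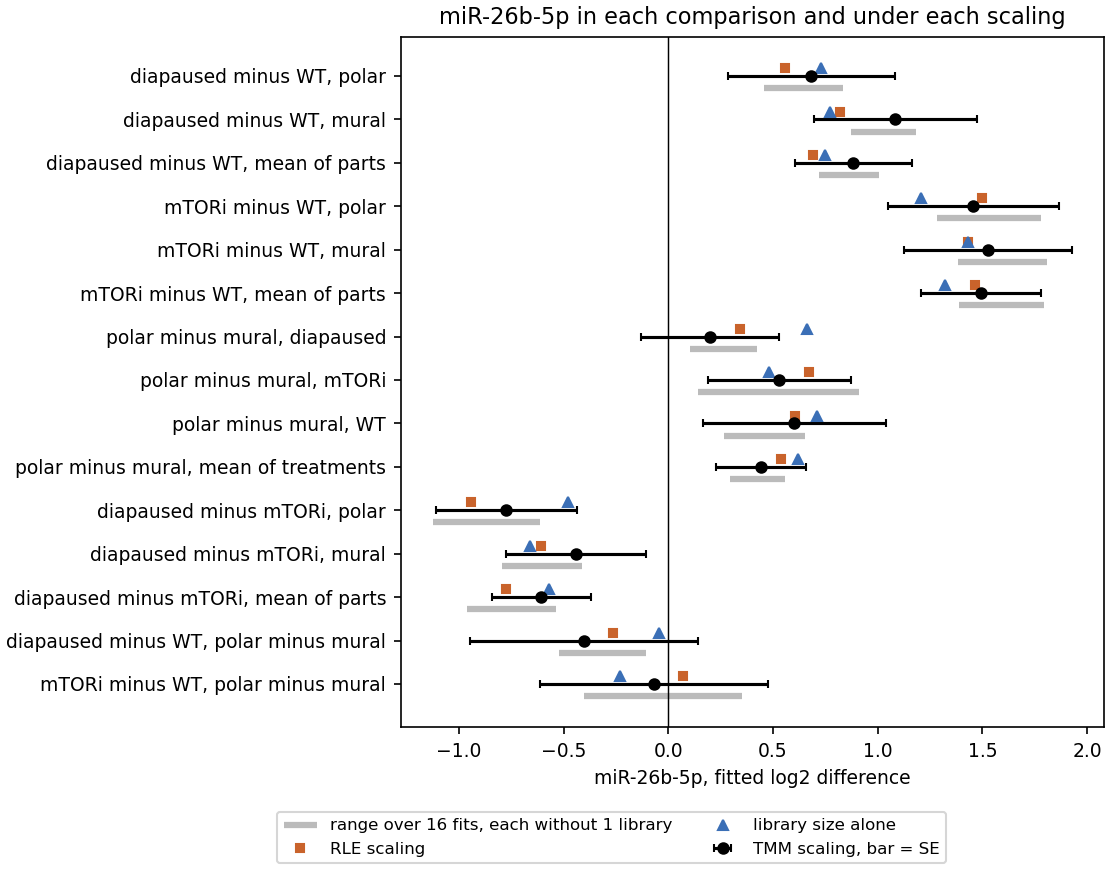
Fitted log2 difference of miR-26b-5p in 15 contrasts, with TMM scaling as black points with SE bars, RLE scaling as squares, library size alone as triangles, and the range over 16 fits that each leave out 1 library as grey bars. All paused minus WT values are above 0 and all diapaused minus mTORi values below 0, while the last contrast has values on both sides of 0.

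Polar fragments had more miR-26b-5p than mural fragments of the same treatment by mean share, and this difference did not choose the miRNA. The ratios of polar to mural mean shares were 1.54 in diapaused, 1.36 in mTORi and 1.63 in WT embryos. The polar and mural libraries did not overlap by share in diapaused and WT embryos, as was so for 40.2% and 31.4% of the tested miRNAs in that direction, and overlapped in mTORi embryos. Averaged over the treatments the difference was 0.503 percentage points (polar minus mural), with p = 0.01 in an exact two-sided permutation of the part labels within treatments, and 0.02 after adjustment over the 2 share comparisons made. The 2400 arrangements can give no p under 0.000833. With same-numbered polar and mural mTORi libraries kept as pairs, a choice made after seeing the data, the exact permutation p was 0.00417, and with all same-numbered libraries so kept it was 0.0156. Outside the miR-290 cluster it was 0.75 points (exact permutation p = 0.0142). Without polar mTORi replicate 3 the difference was 0.369 points (exact permutation p = 0.0325).

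On the CPM scale the difference between the parts did not pass the test. The edgeR log2 difference of polar minus mural was 0.20 in diapaused (SE 0.33, adjusted p = 0.749), 0.53 in mTORi (SE 0.34, adjusted p = 0.375) and 0.60 in WT fragments (SE 0.44, adjusted p = 0.494). The shares of tested miRNAs called in these comparisons were 18.6%, 4.9% and 10.8%. For the mean of the treatments the log2 difference was 0.44, with a 95% interval of -0.01 to 0.90 (edgeR adjusted p = 0.148), where 27.5% of the tested miRNAs were called. Without polar mTORi replicate 3 this mean was 0.29 and the mTORi value 0.14.

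The scaling bears on the diapaused value. The TMM factors were 1.10 to 1.26 in polar diapaused libraries and 0.818 to 0.847 in mural diapaused ones, and with library size alone the polar minus mural difference in diapaused fragments was 0.66 in place of 0.20. The median of all 102 tested miRNAs in that comparison was 0.58 with library size alone and 0.10 with TMM. Relative to those medians the difference of miR-26b-5p was small under either scaling.

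Diapaused embryos had less miR-26b-5p than mTORi embryos by mean share in both parts. Every diapaused library was deeper than every mTORi library (totals of at least 9049 against at most 4386). Depth and kind of pause therefore cannot be told apart in this comparison. The ratio of diapaused to mTORi mean shares was 0.711 in polar fragments, where the libraries overlapped, and 0.628 in mural fragments, where they did not overlap by share but did by CPM and outside the miR-290 cluster. Of the tested miRNAs, 14.7% were lower without overlap by share in mural diapaused than in mural mTORi libraries. Averaged over the parts, diapaused minus mTORi was -0.616 percentage points, with p = 0.025 in an exact two-sided permutation of the treatment labels within parts (0.025 after adjustment over the 2 comparisons). The 400 arrangements can give no p under 0.005. They treat polar and mural libraries as independent. With same-numbered libraries moved together, also chosen after seeing the data, the difference could not pass: the exact permutation p was 0.1, the smallest that the 20 arrangements can give. Without polar mTORi replicate 3 the difference was -0.415 points (exact permutation p = 0.04). Leaving out any of 3 diapaused libraries put the exact permutation p above 0.05, with p = 0.075 without polar diapaused replicate 2, 0.055 without mural diapaused replicate 1 and 0.06 without mural diapaused replicate 3.

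On the CPM scale this difference did not pass the adjusted threshold. The edgeR log2 difference of diapaused minus mTORi was -0.77 in polar fragments, with a 95% interval of -1.48 to -0.07 (adjusted p = 0.120), and -0.44 in mural fragments, with an interval of -1.15 to 0.26 (adjusted p = 0.399). Of the tested miRNAs, 15.7% were called in polar and 0.98% in mural fragments. For the mean of the parts the log2 difference was -0.61 (SE 0.24, edgeR adjusted p = 0.0652), at which 29.4% of the tested miRNAs were called. This value crossed the threshold when the scaling, the filter, the tool or 1 of 6 libraries was changed, as given with the other alternatives. Leaving out any mural mTORi library moved the polar difference as far as -1.13, past the threshold, with edgeR adjusted p from 0.0346 to 0.0364.

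Whether the paused minus WT difference of miR-26b-5p was larger in one part than in the other was tested as an interaction. For diapaused minus WT, the polar difference minus the mural difference was -0.40, with a 95% interval of -1.55 to 0.75 (edgeR adjusted p = 0.92). For mTORi minus WT it was -0.07, with an interval of -1.22 to 1.08 (edgeR adjusted p = 1.00). With 2 WT libraries a part, the mTORi interval leaves room for more than a 2-fold difference between the parts in either direction. The diapaused interval leaves that room only toward a smaller difference in polar fragments. No tested miRNA was called by edgeR in either interaction (0% of the 102 in both). At an unadjusted p under 0.05 there were 12 for diapaused and 14 for mTORi. Other settings and tools called up to 6 in the mTORi interaction and 0 in the diapaused one.

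Levels of the other 101 tested miRNAs were set beside those of miR-26b-5p by Pearson's r over the 16 libraries on log2 CPM, as a description with no test. The points share their libraries, depth and scaling. The median r was -0.07. The 5 most alike are shown with their mature sequences (RefSeq, GRCm38.p6, seed in capitals), because none of them has the seed of miR-26b-5p and all 5 seeds differ.
miR-23a-3p: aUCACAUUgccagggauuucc
miR-148a-3p: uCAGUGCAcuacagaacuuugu
miR-25-3p: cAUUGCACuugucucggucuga
let-7b-5p: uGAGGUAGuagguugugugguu
miR-203-3p: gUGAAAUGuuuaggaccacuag

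The r was 0.84 for miR-23a-3p, 0.83 for miR-148a-3p, 0.74 for miR-25-3p, 0.67 for let-7b-5p and 0.65 for miR-203-3p. Polar mTORi replicate 3 carried part of this likeness. In a comparison without that library, chosen after seeing the data, r was 0.77, 0.89, 0.67, 0.42 and 0.35 in the same order. Over the 6 group means r was highest for miR-148a-3p, at 0.95. Among libraries within groups, r was 0.71 for miR-23a-3p and 0.14 for miR-148a-3p. The likeness of miR-148a-3p therefore lay in the group means more than in the replicates.

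miR-148a-3p, of the miR-148 family, had the mean CPM nearest to that of miR-26b-5p among these 5. It averaged 27341 ± 1679 CPM in polar diapaused and 32948 ± 4479 CPM in polar mTORi fragments, against 14580 ± 1401 CPM in polar WT. In mural fragments it averaged 18544 ± 1983 CPM in diapaused and 23090 ± 4240 CPM in mTORi, against 5674 ± 93.5 CPM in WT. It had the order of miR-26b-5p within each part: mTORi highest, then diapaused, then WT. miR-23a-3p, from the cluster of miR-23a, miR-27a and miR-24-2, was lower, at 1828 ± 868 CPM in polar diapaused and 5534 ± 5511 CPM in polar mTORi fragments, against 622 ± 588 CPM in polar WT. Its libraries spread widely in polar mTORi fragments.

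At the other end stood miR-466f-3p (r = -0.76), from the large Sfmbt2 cluster, and miR-291a-5p (r = -0.78), an arm of the miR-290 cluster. The mean CPM of miR-291a-5p was higher in mural than in polar fragments of every treatment.
miR-291a-5p: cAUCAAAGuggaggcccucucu
The fitted log2 difference of mTORi minus WT was -1.31 (SE 0.41) in polar and -0.71 (SE 0.39) in mural fragments for miR-291a-5p. For diapaused minus WT it was -0.42 (SE 0.39) and -0.12 (SE 0.38). Its values are opposite in sign to those of miR-26b-5p in all 4 comparisons, which is what its negative r already says.

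**Figure D3:**
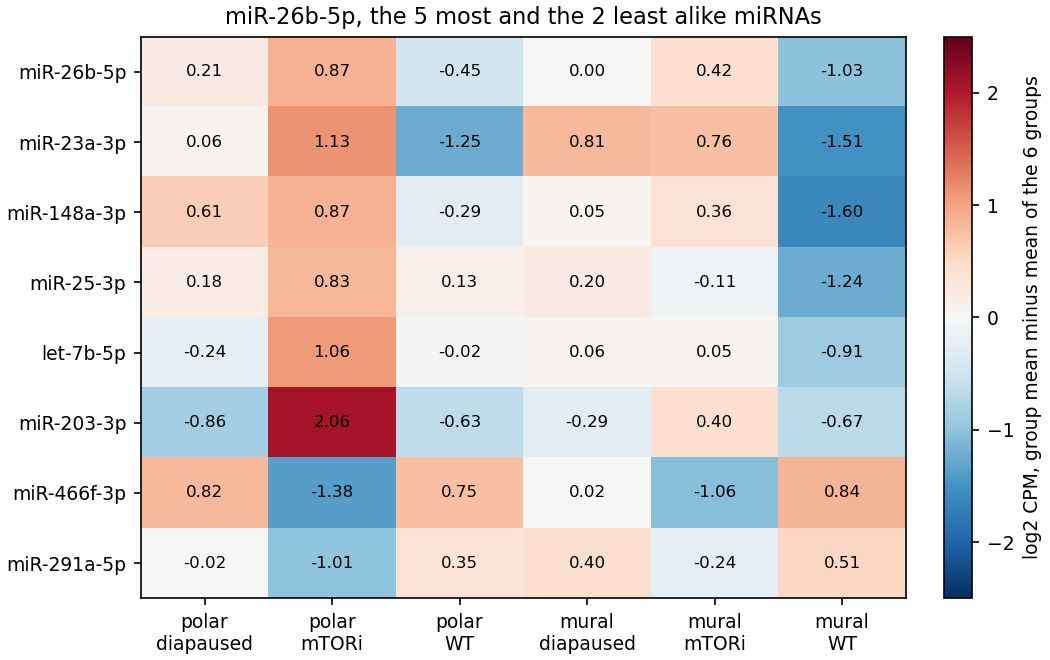
Group mean log2 CPM of miR-26b-5p, the 5 most alike and the 2 least alike of the tested miRNAs, each minus its own mean over the 6 groups, with red for higher and blue for lower. The mural WT column is low for miR-26b-5p and the 5 most alike, and miR-203-3p stands out at 2.06 in polar mTORi fragments.

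miRNAs that MYC is reported to lower in lymphoma models make up a list of 23 names to which miR-26b-5p belongs. Besides miR-26b-5p, 10 of them had counts enough to be tested and 12 did not. The list was drawn up with results of these libraries known. Of the 10, only let-7g-5p, miR-23b-3p, miR-30d-5p and miR-30e-5p had counts over the filter in at least 2 WT libraries, and the other 6 passed it through the paused groups, so the counts below are a description and support nothing. Of the 10, 1 was called higher and 0 lower in diapaused against WT polar fragments, where 5.88% of all tested miRNAs were called higher, a share near that of the list. In mural fragments 4 were called higher and 0 lower, where 7.84% of all tested miRNAs were called higher. In mTORi against WT, 3 were called higher and 0 lower in polar fragments, where 12.7% of all were higher, and 3 and 0 in mural fragments, where 5.88% of all were higher. The median log2 difference of the 10 was 1.31 and 1.51 for diapaused minus WT in polar and mural fragments, where all tested miRNAs had 0.10 and 0.19. For mTORi minus WT it was 1.17 and 1.61, where all tested miRNAs had 0.18 and -0.06.

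miR-30d-5p, of the miR-30 family, was called in all 4 of these comparisons. It averaged 13425 ± 1512 CPM in polar diapaused and 11493 ± 4602 CPM in polar mTORi fragments, against 4753 ± 849 CPM in polar WT. In mural fragments it averaged 23219 ± 2338 CPM in diapaused and 21173 ± 2289 CPM in mTORi, against 7009 ± 442 CPM in WT. Its log2 difference of diapaused minus WT was 1.47 in polar (SE 0.37) and 1.73 in mural fragments (SE 0.35). For mTORi minus WT it was 1.24 (SE 0.37) and 1.59 (SE 0.35). No p is given for these values, because the list was drawn up with results of these libraries known. Unlike miR-26b-5p, it had its higher mean CPM in the mural fragments of every treatment.

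The other calls were of names that passed the filter through the paused groups alone and that had few WT counts, so they are given as counts with no p. let-7d-5p, a let-7 family member, was called in diapaused minus WT mural fragments, with 148 counts in diapaused against 7 in WT. miR-23a-3p was called in both kinds of pause in mural fragments, with 116 counts in diapaused and 32 in mTORi, against 6 in WT. miR-30b-5p was called in diapaused minus WT mural fragments, with 82 counts in diapaused against 4 in WT. The group totals of counts differ, with 47472 in mural diapaused and 11489 in mural mTORi libraries, against 14801 in mural WT.

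miR-29a-3p, of a family known for its extracellular matrix targets, was called in mTORi minus WT in both parts. It had 33 counts in mural mTORi against 4 in mural WT libraries. In polar fragments it had 46 counts in mTORi against 2 in WT, a ratio of shares of 17.6 with a 95% counting interval of 4.60 to 149. The counting intervals given here pool the libraries of a group. They cover counting error only, not the spread between libraries, and are not tests. miR-23a-3p, also called in polar fragments, had 46 counts in mTORi against 3 in WT, a ratio of 11.7 with a counting interval of 3.77 to 58.9. For polar diapaused fragments miR-29a-3p had 8 counts and a ratio to WT of 0.809, with a counting interval of 0.161 to 7.82.

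Not every tested name of the list was called or positive. miR-30e-5p had log2 differences of -0.61 and -0.42 for diapaused minus WT in polar and mural fragments, and of 0.66 and 0.76 for mTORi minus WT, none of them called. miR-23b-3p lay between -0.23 and 0.24 in these 4 comparisons. miR-22-3p had 0.20 and 0.41 for diapaused minus WT and 1.10 and 1.62 for mTORi minus WT, and let-7g-5p had 1.14, 1.34, 0.93 and 0.31. None of these was called in the 4 comparisons. Over the parts let-7g-5p was called higher in diapaused minus WT, at 1.24 (SE 0.31), where 15 of the 102 tested miRNAs were called higher. miR-15a-5p had 0.31 and -0.16 for diapaused minus WT and mTORi minus WT in mural fragments, and in polar WT only 3 counts.

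**Figure D4:**
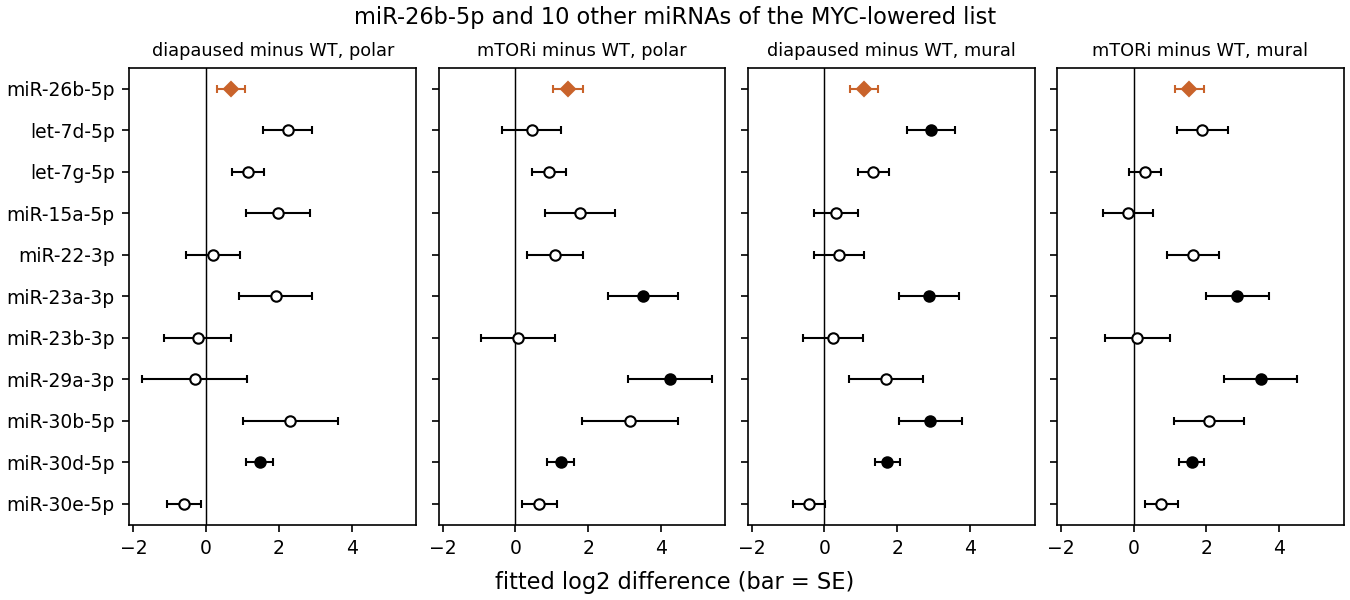
Fitted log2 difference from WT, with SE bars, of miR-26b-5p (diamond, shown with no test) and the 10 other tested miRNAs of the MYC-lowered list, with 1 panel for each kind of pause and part, filled where edgeR called them at an adjusted p under 0.05. miR-30d-5p is filled in all 4 panels, let-7d-5p, miR-15a-5p, miR-22-3p, miR-23a-3p, miR-29a-3p and miR-30b-5p passed the filter through the paused groups alone, and polar WT values of miR-15a-5p, miR-23a-3p, miR-29a-3p and miR-30b-5p rest on 1 to 3 counts.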

How the data were processed

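Per the labels' protocols, small RNA was ligated to adapters that carry molecular identifiers and amplified without size selection. The authors deposited whole-number counts per mature miRNA name for each library, without normalization. Genome build GRCm38 comes from the submitters' processing notes. The aligner, the counter, the miRNA annotation and whether identifiers were collapsed were not given in the sources used here.

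Groups were taken from the tissue and treatment labels, since the mural mTORi titles carry no part and hold both mTORi and diapaused. No pair of libraries held identical values. With edgeR 4.0.16 in R 4.3.3, filterByExpr (count at least 10, total at least 15) left 102 miRNAs holding 92.8% to 97.6% of each library. Libraries were scaled by TMM, and a quasi-likelihood model with 6 group means was fitted over all 16 libraries (10 residual degrees of freedom, common dispersion 0.1417, or a coefficient of variation of 0.376). P-values were adjusted over the 102. Logarithms of CPM used a prior count of 2. Alternatives were RLE factors, library size alone, other filters, DESeq2 1.42.0, robust or restricted fits, replicate blocks and leaving out each library. Exact intervals and chi-square values used SciPy 1.17.1, and exact permutations went through every arrangement in Python 3.11.15.

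Same-numbered polar and mural libraries deviated together in mTORi (correlations 0.159, 0.112 and 0.183 over miRNAs) but not in every diapaused pair (0.110, -0.011 and 0.364). Different-numbered pairs ran from -0.126 to 0.009 in mTORi and from -0.272 to 0.176 in diapaused. WT has 2 pairs only (0.307 each), and these values are equal by construction, since the deviations of 2 libraries from their mean mirror each other. The numbers were therefore taken as pairing mTORi libraries alone, from the data and not from a label. The main edgeR fit and the first permutation given for each share comparison did not use this pairing.

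The miRNA and all lists were chosen with earlier results of these data known. The named miRNAs were the miR-26 names, tested members of the MYC-lowered list, the 5 most and 2 least alike by Pearson's r, and 2 neighbours on each side in mean CPM.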

Additional observations from a re-analysis of the deposited data

How the results depend on the processing

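miR-26b-5p kept the sign of its diapaused minus WT, mTORi minus WT, polar minus mural and diapaused minus mTORi differences under every alternative run. With a stricter filter, diapaused minus WT in mural fragments was 0.67. Polar minus mural over the treatments passed the threshold with library size alone (0.62, edgeR adjusted p = 0.0321). Diapaused minus mTORi in mural fragments passed it when only the groups compared were fitted (-0.76, adjusted p = 0.0347). Over the parts it passed with RLE factors (-0.78, adjusted p = 0.0418), a stricter filter (-0.88, adjusted p = 0.0115), DESeq2 (-0.78, adjusted p = 0.0253) and a robust fit (-0.61, adjusted p = 0.0398). The interactions turned positive, at 0.011 for diapaused with a stricter filter, and for mTORi at 0.068 with RLE factors, 0.011 with a stricter filter and 0.072 with DESeq2. The cause of these shifts was not tested.

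Fits that each left out 1 library gave diapaused minus WT from 0.46 to 0.83 in polar fragments, 0.87 to 1.18 in mural fragments and 0.72 to 1.01 over the parts. mTORi minus WT ran from 1.28 to 1.78, 1.38 to 1.81 and 1.39 to 1.80. Polar minus mural ran from 0.10 to 0.42 in diapaused, 0.14 to 0.91 in mTORi, 0.26 to 0.65 in WT and 0.29 to 0.56 over the treatments. Diapaused minus mTORi ran from -1.13 to -0.61 in polar fragments, -0.79 to -0.41 in mural fragments and -0.96 to -0.54 over the parts. The last was called in 6 of 16 fits: without mural diapaused replicate 2, polar mTORi replicate 2, polar mTORi replicate 3 or any mural mTORi library. The interactions ran from -0.52 to -0.11 for diapaused and -0.40 to 0.35 for mTORi. By share, polar minus mural ran from 0.369 to 0.609 points and diapaused minus mTORi from -0.775 to -0.415 points.

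With a replicate block, polar minus mural was 0.17 in diapaused fragments, and with the block within treatment it was 0.46 in mTORi fragments and 0.42 over the treatments. Diapaused minus mTORi in mural fragments was -0.40 with the plain block. The block changed no edgeR call of miR-26b-5p. In the permutation of shares, moving same-numbered libraries together left diapaused minus mTORi at -0.616 points with exact permutation p = 0.1. That is the smallest p its 20 arrangements can give, so this setting could not pass and decides nothing.

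The number of MYC-lowered miRNAs called higher in diapaused against WT polar fragments was 2 with library size alone, 2 with DESeq2 and 0 without a filter. In mural fragments it was 2 with RLE factors, library size alone, a stricter filter or DESeq2. Over the parts it was 3 without a filter. For mTORi against WT polar fragments it was 1 when only the groups compared were fitted. Without 1 library these counts ran from 0 to 2 and 0 to 5 for diapaused in polar and mural fragments and 2 to 5 over the parts, and for mTORi from 0 to 3, 0 to 5 and 3 to 5. The count was 0 for diapaused in mural fragments without mural WT replicate 2, and for mTORi in polar fragments without either polar WT library and in mural ones without mural WT replicate 1. The WT groups held 1 to 7 counts of let-7d-5p, miR-23a-3p, miR-29a-3p and miR-30b-5p. The share of all tested miRNAs called higher is not given for each of these settings, so the list counts under them support nothing.

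The number of all tested miRNAs called ran over the alternatives from 6 to 15 (8 as reported) for diapaused minus WT in polar fragments, 5 to 14 (10) in mural fragments, 2 to 32 (23) for mTORi minus WT in polar fragments and 11 to 22 (12) in mural fragments. It ran from 11 to 30 (19), 0 to 10 (5) and 7 to 20 (11) for polar minus mural in diapaused, mTORi and WT fragments, and from 3 to 21 (16) and 1 to 17 (1) for diapaused minus mTORi in polar and mural fragments. Without 1 library the polar minus mural counts ran from 5 to 22, 0 to 7 and 4 to 14, and the diapaused minus mTORi counts from 4 to 24 and 0 to 8.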
